A study of Mus musculus with 4 samples.

Results

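T cells that carry a pair of productive T-cell receptor (TCR) alpha chains were compared with T cells that carry a single one, in the spleens of 2 lymphoma-bearing mice. The members are cell barcodes of the TCR libraries with exactly 1 row for a beta chain (TRB) and exactly 2 rows for alpha chains (TRA), here called dual-TRA barcodes, and they were set against barcodes with 1 TRB and 1 TRA row, called single-TRA barcodes. There were 1216 dual-TRA barcodes among the 12020 barcodes of both TCR libraries, 896 in the pBIC mouse and 320 in the pBIC10 mouse, beside 5960 and 2850 single-TRA barcodes. The rule rests on measured values: a row exists because a chain was assembled as productive in that barcode.

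The study profiled 1 female mouse of genotype pBIC and 1 of genotype pBIC10, and its title names IL-10 from tumoral B cells in diffuse large B-cell lymphoma as the subject. The labels give neither the alleles behind these names nor the animals' age. Live cells of each spleen were sorted by flow cytometry and mixed to 20% GFP-positive lymphoma cells and 80% GFP-negative cells of the microenvironment, and 17000 to 19000 cells were loaded for 5′ droplet sequencing, which gave paired expression and TCR libraries for each mouse. The expression matrices held 18129 and 14991 barcodes at medians of 6235 and 5458 UMIs (unique molecular identifiers, which count captured transcripts), and 8286 of 8300 and 3715 of 3720 TCR barcodes were found in them. The TCR libraries were sequenced to 73.6 reads per TRA UMI in pBIC and 227 in pBIC10. The 2 expression matrices shared 712 barcode sequences, and 34 barcodes of the classes compared occurred in both TCR libraries, so barcodes were always kept within their mouse. With 1 mouse per genotype, and with both classes drawn from the same library, no test was possible: every 95% interval below covers counting error only, cells of 1 clonotype share their origin, and genotype, mouse and library cannot be told apart.

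A T cell normally displays 1 beta chain paired with 1 alpha chain. Beta rearrangement stops on the second allele once a working chain is made, whereas the alpha locus rearranges on both alleles and goes on until a receptor is positively selected in the thymus, so that some mature T cells carry productive alpha chains from both alleles. At the alpha locus each V segment (TRAV) is joined to a J segment (TRAJ), and later rounds of joining use J segments that lie farther downstream, which in this locus have lower numbers. A droplet with more than 1 T cell can also give a barcode with a pair of alpha chains.

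The junctions of 3 expanded dual-TRA clonotypes of pBIC and 2 of pBIC10 are shown because the same pair of alpha sequences was read in many separate barcodes beside 1 beta sequence. They are the CDR3 nucleotide sequences of the deposited contigs, 5′ to 3′. Capitals mark bases that were shared neither with the start of at least 3 other rearrangements of the same V segment nor with the end of at least 3 of the same J segment.
pBIC clonotype1, TRB (TRBV12-1, TRBJ2-5): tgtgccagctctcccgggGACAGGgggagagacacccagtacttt
pBIC clonotype1, TRA (TRAV5N-4, TRAJ16): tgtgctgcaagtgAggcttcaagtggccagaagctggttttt
pBIC clonotype1, TRA (TRAV16N, TRAJ18): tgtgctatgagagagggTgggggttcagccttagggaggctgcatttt
pBIC clonotype4, TRB (TRBV13-3, TRBJ2-1): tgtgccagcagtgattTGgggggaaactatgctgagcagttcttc
pBIC clonotype4, TRA (TRAV9-1, TRAJ31): tgtgctgtgGGGGataacagaatcttcttt
pBIC clonotype4, TRA (TRAV7N-6, TRAJ13): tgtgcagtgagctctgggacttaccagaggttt
pBIC clonotype10, TRB (TRBV13-3, TRBJ1-1): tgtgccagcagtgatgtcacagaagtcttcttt
pBIC clonotype10, TRA (TRAV7D-4, TRAJ27): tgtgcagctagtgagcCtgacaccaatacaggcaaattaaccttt
pBIC clonotype10, TRA (TRAV3-1, TRAJ31): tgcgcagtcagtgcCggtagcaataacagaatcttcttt
pBIC10 clonotype5, TRB (TRBV12-1, TRBJ1-2): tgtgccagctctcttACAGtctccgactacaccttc
pBIC10 clonotype5, TRA (TRAV14-3, TRAJ48): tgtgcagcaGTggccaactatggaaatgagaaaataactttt
pBIC10 clonotype5, TRA (TRAV3-3, TRAJ50): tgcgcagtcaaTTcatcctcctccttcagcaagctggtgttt
pBIC10 clonotype16, TRB (TRBV14, TRBJ2-7): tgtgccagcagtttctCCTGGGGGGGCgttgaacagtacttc
pBIC10 clonotype16, TRA (TRAV8D-2, TRAJ43): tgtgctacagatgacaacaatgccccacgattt
pBIC10 clonotype16, TRA (TRAV10, TRAJ47): tgtgcCGCAgcaaacaagatgatcttt

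Dual-TRA barcodes made up 13.1% (12.3 to 13.9) of the 6856 pBIC barcodes of both classes and 10.1% (9.07 to 11.2) of the 3170 of pBIC10. Counted once per clonotype, the group of barcodes to which the authors' software assigned 1 receptor, the shares were 166 of 1484 or 11.2% (9.63 to 12.9) in pBIC and 170 of 1445 or 11.8% (10.1 to 13.5) in pBIC10. The order of the mice thus turned between barcodes and clonotypes, and the clonotype intervals overlap. A single clonotype, clonotype1, held 218 of the 896 dual-TRA barcodes of pBIC (24.3%), and without it the pBIC barcode share was 10.4%. In pBIC10 the largest, clonotype5, held 49 of 320 (15.3%).

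Most dual-TRA barcodes belonged to pairs seen more than once. The same TRB with the same pair of TRA junctions recurred in another barcode for 780 of 896 members in pBIC (87.1%) and for 190 of 320 in pBIC10 (59.4%). Among the distinct combinations of a TRB with a TRA pair, 55 of 171 recurred in pBIC and 40 of 170 in pBIC10, so the other 116 and 130 rest on 1 barcode each. No TRA pair was shared between the mice, although 45 single TRA junctions and 2 TRB junctions were.

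Most sets of barcodes with the same TRB junction, called TRB families, held no dual-TRA barcode. Of the 63 pBIC families with at least 20 barcodes, 52 had no dual-TRA barcode in 2267 barcodes. Pooled over these families this allows a share of up to 0.132%. Each of them had only 20 to 145 barcodes, so the pooled limit does not bound the share of any single family. The other 11 families held 606 dual-TRA barcodes among 946, with shares from 21.4% to 92.0% and a median of 75.5%. In pBIC10, 12 of 15 families had none in 503 barcodes (up to 0.596% when pooled), and 3 had shares from 11.5% to 92.5%. No family of this size had a share between 0 and 11.5% in either mouse.

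**Figure D1:**
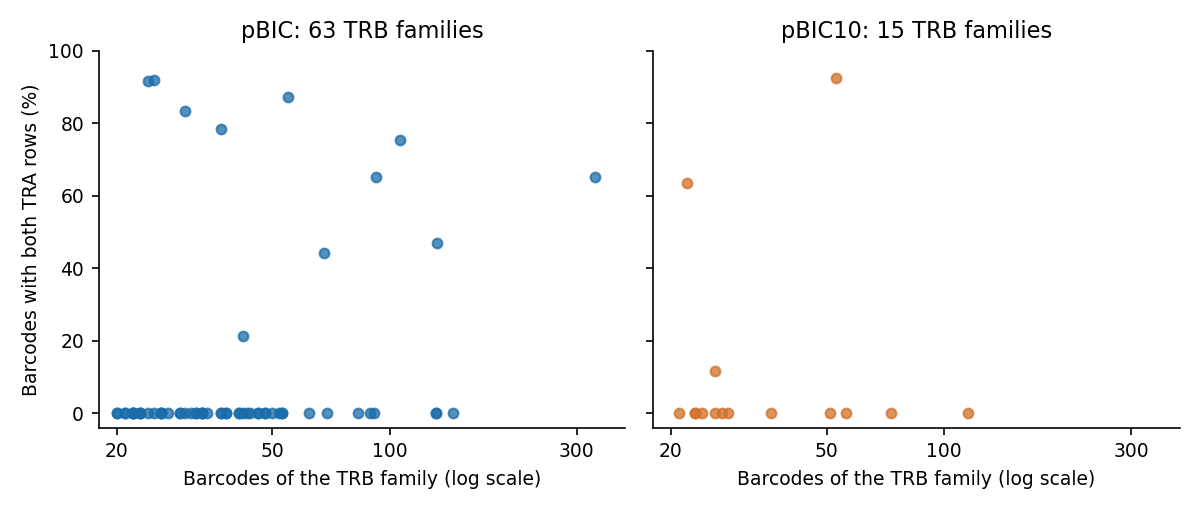
Share of barcodes with both TRA rows (%, y axis) in each TRB family of at least 20 barcodes against the number of barcodes of the family (x axis, log scale), with pBIC on the left (63 families) and pBIC10 on the right (15). The points lie at 0 (52 and 12 families) or between 21.4% and 92.0% in pBIC and between 11.5% and 92.5% in pBIC10.

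In the clonotype1 family of pBIC, 218 of 335 barcodes (65.1%, 59.7 to 70.2) had both TRA rows, 67 had the TRAV5N-4 chain without the TRAV16N chain, and 49 had the reverse. Both alpha chains of this clonotype were therefore often read alone. In clonotype4, with 62 of 132 barcodes (47.0%, 38.2 to 55.8) dual, the chains were read unequally: 67 barcodes had only the TRAV7N-6 chain and 3 only the TRAV9-1 chain. Clonotype10 had both rows in 60 of 92 barcodes (65.2%, 54.6 to 74.9), with 27 barcodes showing TRAV3-1 alone and 5 TRAV7D-4 alone. Of the 3 pBIC10 families of this size with dual-TRA barcodes, clonotype5 was the most complete, with both rows in 49 of 53 barcodes (92.5%, 81.8 to 97.9), and clonotype7 the least, with 3 of 26 (11.5%, 2.45 to 30.2).

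The share of barcodes read with both rows moved with depth. Over all clonotypes with a TRA pair, both rows were present in 887 of 1357 pBIC barcodes (65.4%, 62.8 to 67.9) and in 320 of 401 pBIC10 barcodes (79.8%, 75.5 to 83.6). A clonotype has a TRA pair here only because a barcode showed both rows, so clonotypes of 1 barcode always count as complete. These gave 89 of the pBIC and 116 of the pBIC10 barcodes with both rows. They raise the share, more so in pBIC10, and also enter the bins that follow. With barcodes ranked by total expression UMIs and divided into 4 bins, the share went from 47.4% through 60.9% and 71.3% to 77.2% in pBIC, and from 63.4% through 76.6% and 85.6% to 89.4% in pBIC10. The dual-TRA share of all barcodes went with it, from 7.65% in the shallowest bin to 17.8% in the deepest in pBIC and from 6.02% to 13.5% in pBIC10. A barcode with 1 TRA row is therefore not shown to be a cell with 1 alpha chain.

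Clonotype size was spread similarly in the classes except at the top. Of clonotypes with 1 barcode, 10.7% (8.67 to 13.0) in pBIC and 11.3% (9.42 to 13.4) in pBIC10 were dual-TRA, and of those with 10 to 49 barcodes 12.8% (7.50 to 20.0) and 13.9% (4.67 to 29.5). The clonotypes with at least 50 barcodes, 17 in pBIC and 5 in pBIC10, included 6 (35.3%, 14.2 to 61.7) and 1 (20.0%, 0.505 to 71.6) dual-TRA clonotypes. The pBIC interval lies above the shares of the smaller sizes, which ran from 6.67% to 12.8%, and overlaps the interval of the clonotypes with 10 to 49 barcodes, while the pBIC10 interval holds the shares of all smaller sizes. The median size was 1 barcode in both classes of both mice, and the largest dual-TRA clonotypes had 336 and 56 barcodes against 239 and 116 for single-TRA clonotypes. A clonotype with more barcodes has more chances to be read with both chains at least once, and the part of this in the size classes was not tested.

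The alpha chains of a dual-TRA barcode were each read at a level near that of a single TRA. In pBIC the median was 10 UMIs for the chain with more UMIs (quartiles 7 and 15), 6 for the chain with fewer (4 and 9) and 8 for the single TRA (5 and 12). In pBIC10 the medians were 9.5, 6 and 7. Summed over the pair, the medians were 17 in pBIC and 15 in pBIC10, above the single TRA. The TRB chain did not follow: its median was 18 UMIs in both classes of pBIC, and 20 in dual-TRA and 19 in single-TRA barcodes of pBIC10. Within a barcode, the chain with fewer UMIs stood at a median of 0.667 of the other in pBIC and 0.656 in pBIC10. Weakly read chains, at 2 UMIs or fewer, were 5.69% (4.27 to 7.42) of the lesser chains against 4.46% (3.95 to 5.02) of single TRA in pBIC, and 14.1% (10.4 to 18.4) against 11.3% (10.2 to 12.5) in pBIC10. These UMI values are part of what made a row and describe the members only.

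The J segments of a pair were closer to each other along the locus than those of unrelated clonotypes, a feature that the choice of members did not use. The median distance was 7 J numbers (6 to 9) within the 171 pBIC pairs, against 13 between TRA taken from different pairs of that mouse, and 7.5 (7 to 9) within the 170 pBIC10 pairs against 14. J segments more than 20 apart were found in 11 pBIC pairs (6.43%) and 10 pBIC10 pairs (5.88%), where pairs taken across clonotypes gave 28.9% and 30.9%. J segments within 5 of each other were found in 38.0% (30.7 to 45.7) of pBIC pairs and 35.3% (28.1 to 43.0) of pBIC10 pairs, against 22.7% and 21.8% across clonotypes. Across clonotypes the J numbers of the chain with more and the chain with fewer UMIs had a Pearson r of 0.65 (Spearman rho 0.65, n = 171) in pBIC and 0.68 (0.68, n = 170) in pBIC10. All pairs of a mouse came from 1 library, and these values are descriptions with no test.

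**Figure D2:**
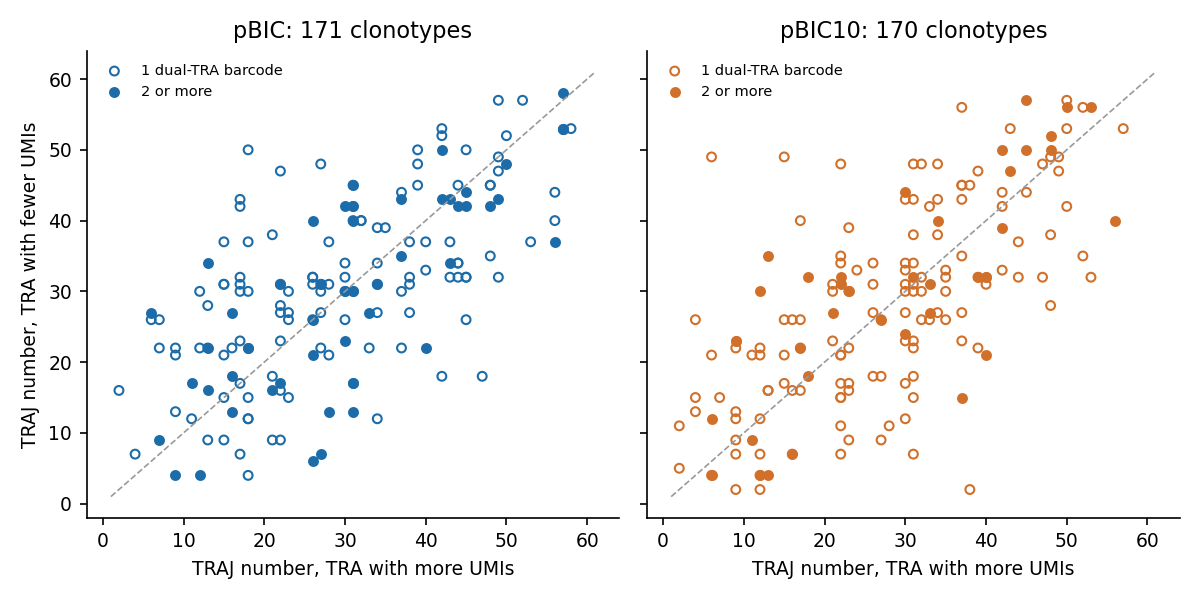
TRAJ number of the TRA with fewer UMIs (y axis) against that of the TRA with more UMIs (x axis) for each distinct dual-TRA combination in pBIC (171) and pBIC10 (170). Filled points were seen in 2 or more dual-TRA barcodes, open points in 1, and the dashed line marks equal numbers; the points gather around it, with 11 and 10 pairs more than 20 numbers apart.

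The closeness of the J segments was present in recurring pairs and in pairs read in 1 barcode. In pBIC, r was 0.75 over the 55 recurring pairs and 0.60 over the other 116, and in pBIC10 it was 0.78 over 40 and 0.64 over 130. The example clonotypes show the range: clonotype1 joined TRAJ16 and TRAJ18, clonotype10 TRAJ27 and TRAJ31, and clonotype5 of pBIC10 TRAJ48 and TRAJ50, while clonotype4 joined TRAJ31 and TRAJ13. Pairs whose V segments came from different families gave the same medians within 0.5 (7 in pBIC and 8 in pBIC10). The order of V segments along the locus, taken from the RefSeq annotation, was far less alike within pairs: the median distance was 24 ranks against 28 between clonotypes in pBIC and 24.5 against 31 in pBIC10, with r of 0.17 and 0.07.

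V use was broad in both classes, with 79 distinct TRAV genes among the 342 pBIC chains of dual-TRA combinations and 83 among the 1381 chains of single-TRA combinations. Both chains came from 1 TRAV family in 18 of 171 pBIC pairs (10.5%), where 9.78% was the value between clonotypes. The clearest difference by ratio was in the TRAV15 family, whose genes can also serve as delta chain V segments. It supplied 10 of 342 dual-TRA chains (2.92%, 1.41 to 5.31) against 4 of 1381 single-TRA chains (0.290%, 0.0790 to 0.740) in pBIC, and 11 of 340 (3.24%, 1.63 to 5.72) against 2 of 1298 (0.154%, 0.0187 to 0.555) in pBIC10. The intervals of the classes do not overlap in either mouse. These chains had the more UMIs in 3 and the fewer in 7 of the pBIC pairs, and in 5 and 6 of the pBIC10 pairs. Of the pairs, 4 of the 10 pBIC and 3 of the 11 pBIC10 recurred, and a UMI of the V gene was found in the expression library in 12 of 14 and 8 of 15 of the dual-TRA barcodes concerned.

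Other V families differed in share in both mice or in 1. Except for family 9, the intervals of the classes overlap in both mice for each family named here. Family 11, whose member TRAV11 is the V segment of the invariant chain of natural killer T cells, gave 3.51% of dual-TRA and 1.59% of single-TRA chains in pBIC, and 3 of 340 against 0 of 1298 in pBIC10. A TRAV11 UMI was found in the expression library in 0 of 20 pBIC and 0 of 3 pBIC10 dual-TRA barcodes concerned. Some V genes were hardly counted there, as described below. Families 16 and 9 were less frequent among dual-TRA chains, at 4.39% against 7.39% and 2.92% against 6.81% in pBIC and at 3.82% against 7.24% and 3.53% against 8.17% in pBIC10. For family 9 the intervals of the classes do not overlap in either mouse. They were 1.41 to 5.31 against 5.54 to 8.27 in pBIC and 1.84 to 6.08 against 6.73 to 9.79 in pBIC10. Family 6 was more frequent, at 18.4% against 13.0% and 15.6% against 10.9%. Family 12 stood at 13.5% and 12.7% in pBIC but at 13.2% and 19.0% in pBIC10.

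The gene expression library, which the choice of members did not use, held V transcripts of both alpha chains. At least 1 UMI of the V gene of the lesser TRA was present in 71.2% (68.0 to 74.3) of the 806 pBIC dual-TRA barcodes kept for expression and in 69.8% (64.2 to 74.9) of the 301 of pBIC10. For the TRA with more UMIs the shares were 60.05% (56.6 to 63.5) and 65.4% (59.8 to 70.8). Clonotype1 weighs on the pBIC values, with TRAV5N-4 found in 0 of 254 barcodes with its row and TRAV16N in 235 of 239. The V gene of the single TRA was found in 68.0% and 66.5% of single-TRA barcodes, values inside the intervals of the lesser TRA. The same V genes were found in 0.929% and 0.797% of single-TRA barcodes of other families, which is the background. Barcodes kept for expression had at most 2 UMIs of Cd79a and Cd79b together, the B-cell receptor genes. Dual-TRA barcodes were deeper, at medians of 8088.5 and 9427 UMIs against 6382.5 and 7736.5. Thinning to 2000 UMIs kept 802 dual-TRA and 5406 single-TRA barcodes in pBIC and 300 and 2644 in pBIC10. The shares were then 49.4% (45.9 to 52.9) for the lesser and 50.5% for the single TRA in pBIC. In pBIC10 they were 34.7% (29.3 to 40.35) and 41.6%, so there the single TRA lay above the interval of the lesser TRA.

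Some V genes were hardly counted in the expression matrix. Many TRAV genes have near-identical copies, between which the authors' counting could split or drop reads, so values of single V genes are uncertain. Of 85 listed V genes in pBIC and 82 in pBIC10, 17 and 15 had no UMI in any barcode compared, among them TRAV5N-4 of clonotype1, and 52 and 44 were found in at least 50% of 10 or more single-TRA barcodes that list them. Over these detected V genes, the lesser TRA was found in 98.0% (96.4 to 99.0) of pBIC barcodes and 92.8% (88.2 to 96.0) of pBIC10 barcodes, and the other TRA in 99.5% and 98.8%. The single TRA stood at 96.8% and 93.8%, but the detected genes were selected on single-TRA barcodes. After thinning to 2000 UMIs the lesser TRA was at 69.0% (64.9 to 72.9) and the single TRA at 72.1% in pBIC. In pBIC10 these were 49.5% (42.2 to 56.7) and 59.0%, the single TRA again above the interval. Where both V genes were of this kind, both were found in 229 of 234 pBIC and 115 of 123 pBIC10 barcodes, and in none were both missing. For lesser chains of 2 UMIs or fewer the V gene was found in 23 of 26 and 20 of 28 barcodes.

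**Figure D3:**
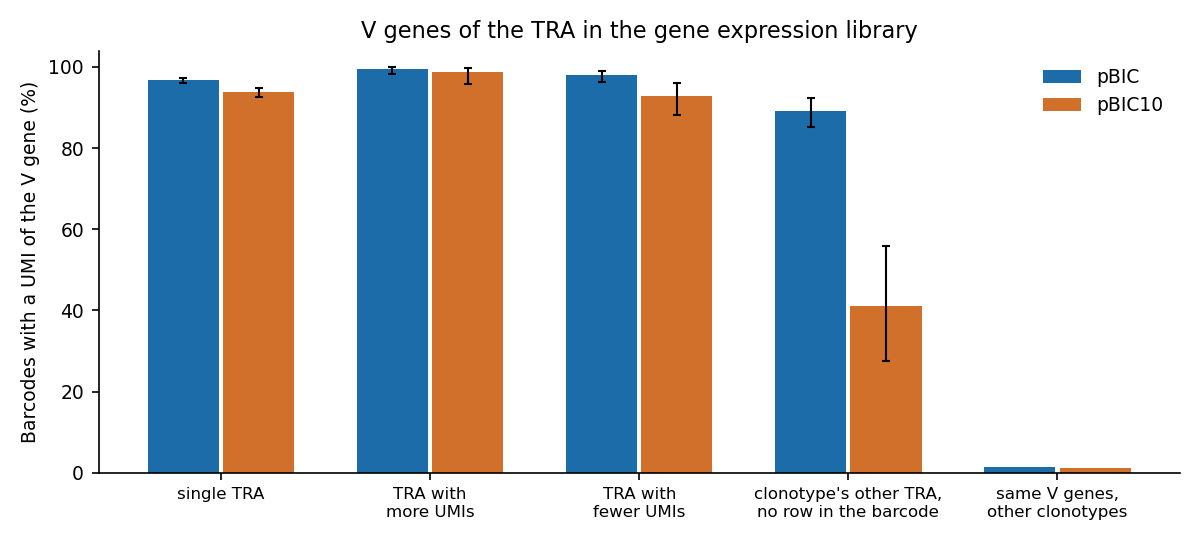
Share of barcodes with at least 1 UMI of the V gene in the gene expression library (%, y axis), over detected V genes, with 95% Clopper-Pearson intervals for pBIC (blue) and pBIC10 (orange). The lesser TRA stands at 98.0% and 92.8%, the V of the clonotype's other TRA in barcodes without its row at 89.1% and 41.2%, and the same V genes in other clonotypes at 1.35% and 1.18%.

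Barcodes of dual-TRA clonotypes with only 1 TRA row were searched for UMIs of the V gene of the chain that had no row, which carry no junction and so do not identify that chain. Over detected V genes such a UMI was found in 271 of 304 pBIC barcodes (89.1%, 85.1 to 92.4) and in 21 of 51 pBIC10 barcodes (41.2%, 27.6 to 55.8). In clonotype4, TRAV9-1 was found in 53 of 54 barcodes with its row and in 61 of 62 without it, against 1.02% of barcodes of other clonotypes. In clonotype10, TRAV7D-4 was found in 60 of 60 with and 23 of 23 without the row. In clonotype1, TRAV16N was found in 235 of 239 with and 53 of 56 without the row. For these clonotypes, most barcodes without the row of the V gene named thus carried its RNA. The other V gene of clonotype1 and clonotype4 was hardly counted even with its row, TRAV5N-4 in 0 of 254 and TRAV7N-6 in 1 of 113 barcodes. Other clonotypes were lower without the row, with TRAV6-1 in 12 of 16 barcodes of pBIC clonotype6 and TRAV6D-5 in 26 of 36 of clonotype12. The pBIC10 clonotype7 was lower still, with TRAV13N-4 in 3 of 4 barcodes with and 6 of 22 without the row.

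Clonotypes with a single listed TRA were searched in the same way for a detected V gene that the TCR library did not list. Among pBIC clonotypes with at least 10 barcodes, such a V gene, of another family than the listed one, was present in at least 50% of the barcodes in 36 of 103 single-TRA clonotypes (35.0%, 25.8 to 45.0) and in 1 of 19 dual-TRA clonotypes (5.26%, 0.133 to 26.0). In pBIC10 the counts were 4 of 27 (14.8%, 4.19 to 33.7) and 0 of 5 (up to 52.2%). The deposited contigs are productive chains only, so rearrangements out of frame have no row and these transcripts have no junction sequence here. The V genes concerned were found in a median of 1.16% of barcodes elsewhere in pBIC and 0.563% in pBIC10.

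In the examples the share was high in the clonotype and low elsewhere. Trav14-2 was found in 75.2% of the 113 barcodes of pBIC clonotype3, whose listed TRA uses TRAV3-1, and in 1.04% elsewhere. Trav17 was found in 96.2% of the 26 barcodes of clonotype49, which lists TRAV7-3, and in all 23 barcodes of clonotype60, which lists TRAV3-4. Some other V genes lie beside the listed one: Trav3-3, 1 rank upstream of TRAV9-4, was found in 95% of the 140 barcodes of pBIC clonotype2, which lists TRAV9-4. Clonotypes were then counted only where the most frequent other V gene lay more than 3 ranks from a listed one. This left 30 of 103 pBIC single-TRA clonotypes (29.1%, 20.6 to 38.9) against 0 of 19 dual-TRA clonotypes (up to 17.6%), and 3 of 27 (11.1%) against 0 of 5 in pBIC10. Less frequent other V genes of the clonotypes left out were not considered. The 1 dual-TRA exception, clonotype6, had Trav5-1 in 66.0% of 97 barcodes, 1 rank upstream of its listed TRAV6-1.

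**Figure D4:**
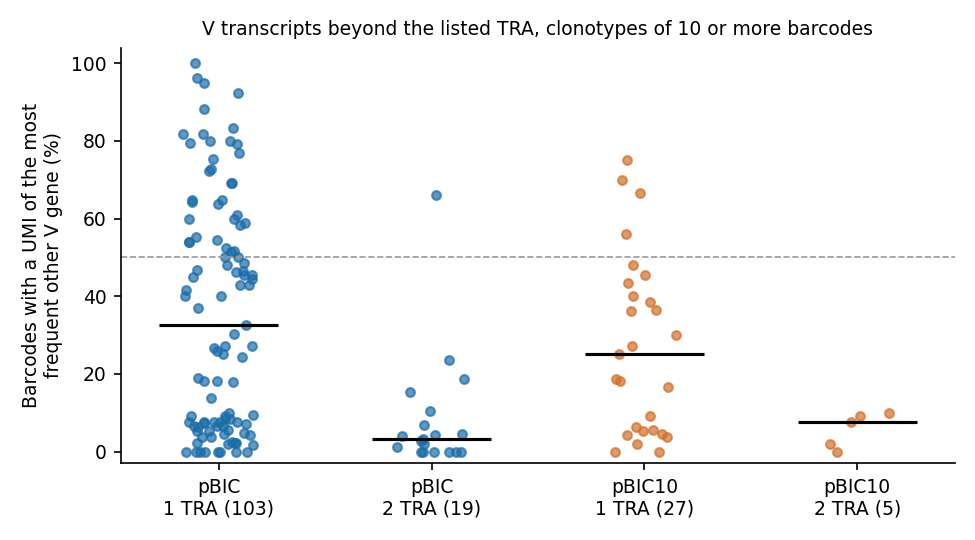
Share of a clonotype's barcodes with a UMI of its most frequent other V gene (%, y axis), for single-TRA and dual-TRA clonotypes of at least 10 barcodes in pBIC (103 and 19) and pBIC10 (27 and 5). Bars mark the medians of 32.5%, 3.17%, 25% and 7.69%, the dashed line marks 50%, and 36, 1, 4 and 0 clonotypes reach it.

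Total expression UMIs were examined because a droplet with more than 1 cell holds more RNA. Dual-TRA barcodes had a median of 8088.5 UMIs (7648 to 8477) against 6382.5 (6276 to 6517) in single-TRA barcodes of pBIC, a ratio of 1.27, and 9427 (8631 to 10759) against 7736.5 (7435 to 7993) in pBIC10, a ratio of 1.22. Barcodes with 2 TRA and 2 TRB rows were deeper still, at 13528 (24 barcodes) and 14880 (35). Barcodes of dual-TRA clonotypes that showed 1 TRA row were shallower than single-TRA barcodes, at 5856.5 and 5879. All barcodes of dual-TRA clonotypes together had medians of 7186 and 8767, against 6373 and 7742 for those of single-TRA clonotypes. In pBIC the ratio with all barcodes classed by their clonotype was 1.13. Recurring pairs (8278 UMIs in pBIC and 9333 in pBIC10) and pairs of 1 barcode (7258 and 9488) both lay above the single-TRA medians. The share of barcodes over the Cd79a and Cd79b limit was 10.0% (8.15 to 12.2) of dual-TRA and 8.21% (7.52 to 8.93) of single-TRA barcodes in pBIC, and 5.64% (3.38 to 8.77) and 5.72% (4.90 to 6.64) in pBIC10, so the intervals of the classes overlap.

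TRA junctions that also occurred beside another TRB were counted as a further check on mixed droplets. Either chain of the pair did so in 9 of 55 recurring pBIC pairs (16.4%, 7.77 to 28.8) and 27 of 116 pairs of 1 barcode (23.3%, 15.93 to 32.03), against 8.25% (6.86 to 9.83) of single TRA. In pBIC10 the shares were 3 of 40 (7.50%, 1.57 to 20.4) and 16 of 130 (12.3%, 7.20 to 19.2) against 5.78% (4.57 to 7.19). A pair has 2 chains that can meet this mark and a single TRA has 1. Taken per chain, the chain with fewer UMIs did so in 7.27% of recurring pairs and 13.8% of pairs of 1 barcode in pBIC, and in 2.50% and 9.23% in pBIC10.

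Expression was compared as UMIs summed over the barcodes of a class and divided by the class total (CPM, scaled to a class total of 1000000 UMIs), and a gene was counted as higher or lower at a ratio of at least 1.5-fold. Of 10683 pBIC genes with at least 100 UMIs, 122 (1.14%) were higher and 367 (3.44%) lower in dual-TRA barcodes, and of 10131 pBIC10 genes 216 (2.13%) were higher and 244 (2.41%) lower, 4.58% and 4.54% in either direction. Over both mice 8 of 9896 genes (0.0808%) were higher and 27 (0.273%) lower in the same direction. Individual clonotypes weigh on these counts: without clonotype1, 82 of the 122 higher and 269 of the 367 lower pBIC genes stayed past 1.5-fold, and as a mean over clonotypes 58 and 202 did. With 1.5-fold required in sums and in clonotype means of both mice, 4 genes (0.0404%) were higher and 11 (0.111%) lower.

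Trac, the constant region of the alpha chain and part of each alpha transcript, was modestly higher in dual-TRA barcodes of both mice. It stood at 289.6 CPM against 252.8 in pBIC (log2 ratio 0.20, 0.13 to 0.26) and at 267.7 against 212.1 in pBIC10 (0.34, 0.24 to 0.43). As a mean over clonotypes the log2 ratios were 0.33 and 0.42. These are 1.15-fold and 1.26-fold and did not reach 1.5-fold, nor did any of the 7 genes of the constant region and CD3 list in either mouse. Cd3e, which marks T cells, stood at 1504 against 1526 CPM in pBIC and at 1021 against 1106 in pBIC10, so both classes expressed it. The CD3 genes, whose products carry the receptor's signal, were at log2 ratios between -0.05 and 0.00 in pBIC and between -0.12 and -0.07 in pBIC10 for Cd3d, Cd3e and Cd3g. The beta constant genes, of which a rearranged beta gene uses 1, did not move together: Trbc1 was at 0.40 (0.30 to 0.50) in pBIC and -0.49 (-0.66 to -0.32) in pBIC10, and Trbc2 at -0.21 in both.

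None of the 6 co-receptor genes and none of the 15 genes of proximal TCR signalling, the kinases and adaptors next to the receptor, passed 1.5-fold in either mouse. Their median log2 ratios were -0.08 and 0.01 in pBIC and 0.04 and -0.04 in pBIC10, against medians over all genes of -0.01 and 0.01. Cd5, a surface brake on TCR signalling, stood at 183.4 against 208.5 CPM in pBIC (-0.18) and at 69.3 against 61.9 in pBIC10 (0.16). Cd8a, a chain of the CD8 co-receptor, was at 0.23 (0.19 to 0.27) in pBIC and -0.21 (-0.28 to -0.13) in pBIC10, while Cd8b1, the other chain, was at -0.10 and -0.11.

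Genes that respond to TCR activation were higher in dual-TRA barcodes of pBIC, 6 of 13 past 1.5-fold, against 1.14% of all genes, and 10 above 0, with a median log2 ratio of 0.54. Nr4a1, an early nuclear receptor induced by TCR signals, stood at 68.5 against 38.2 CPM (0.84, 0.71 to 0.98), Egr1, an early transcription factor, at 145.4 against 88.3 (0.72, 0.63 to 0.81), and Tnfrsf4, the co-stimulatory receptor OX40, at 206 against 116 (0.83). The count was 7 of 13 without clonotype1 and 5 of 13 over recurring pairs, but 3 higher and 2 lower among clonotypes of 1 barcode. As a mean over clonotypes it was 4 of 13 with 12 above 0 and a median of 0.26, and Tnfrsf4, at 0.08, was no longer past 1.5-fold, while Nr4a1 and Egr1 were at 1.08 and 0.97. In pBIC10 none of the 13 was past 1.5-fold higher and 1, Egr3, was lower, at -0.71 (-1.75 to 0.17) from 11 and 135 UMIs. Of all pBIC10 genes 2.13% were higher and 2.41% lower. The list median was 0.06. Nr4a1 and Egr1 were at 0.54 (0.27 to 0.81) and 0.30 (0.15 to 0.43) there, and Tnfrsf4 at -0.11 (-0.21 to -0.02). As a mean over clonotypes Nr4a1 was at 0.09 and Egr1 at 0.18 in pBIC10. The difference between the mice was not tested.

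The 12 proliferation genes were all above 0 in both mice, where 47.2% of all pBIC genes and 52% of all pBIC10 genes were above 0 and 52.8% and 48% below. Their median log2 ratios were 0.30 and 0.47, but in pBIC none and in pBIC10 3 of 12 reached 1.5-fold. Past 1.5-fold higher over all genes were 1.14% in pBIC and 2.13% in pBIC10. Cdk1, the kinase that drives entry into mitosis, stood at 118.6 against 86.4 CPM in pBIC (0.46, 0.36 to 0.56) and at 102.1 against 62.9 in pBIC10 (0.70, 0.54 to 0.85), and Ccnb1, its cyclin partner, at 0.37 and 0.54. As a mean over clonotypes 9 of 12 stayed above 0 in pBIC, with Ccnb1 at -0.46, and 12 of 12 in pBIC10. Deeper barcodes are the ones in which both TRA rows were read more often. With all barcodes of a dual-TRA clonotype placed in 1 class, the medians were 0.21 and 0.43 with 12 of 12 above 0 in each mouse. The part of depth in this difference was not tested further.

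**Figure D5:**
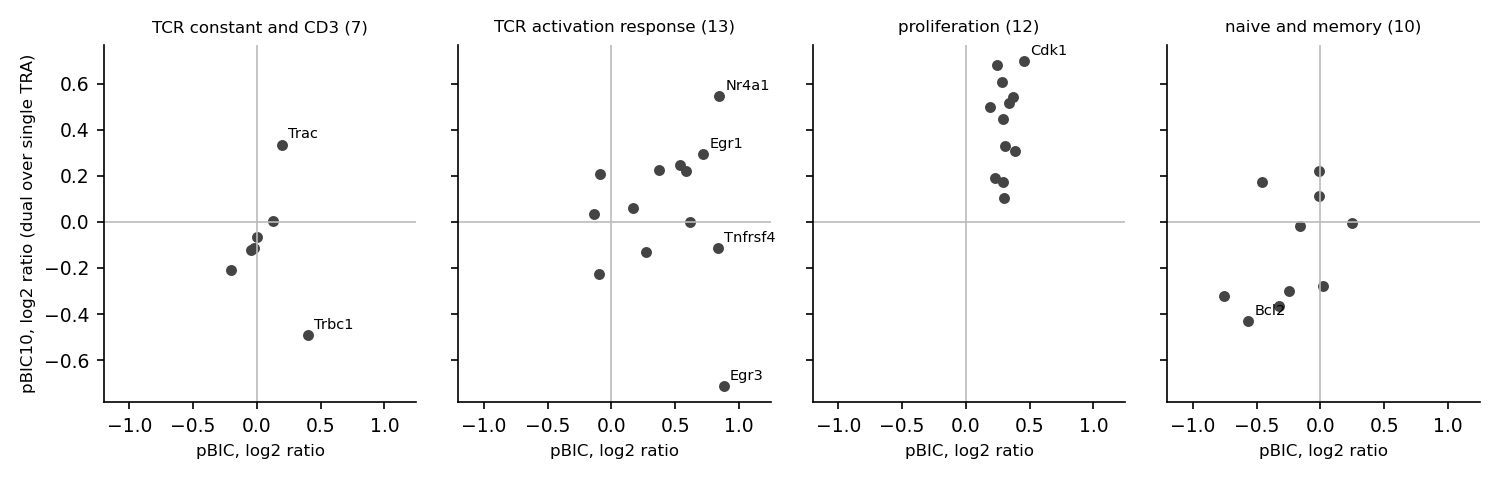
Log2 ratio of dual-TRA over single-TRA CPM in pBIC10 (y axis) against pBIC (x axis) for the genes of 4 lists, 1 point per gene. The 12 proliferation genes all lie above 0 on both axes, the TCR activation genes extend to 0.88 in pBIC and scatter around 0 in pBIC10, and Trbc1 lies on opposite sides of 0.

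Cytotoxic effector genes split in pBIC. Of the 14, the chemokine genes Ccl3 (log2 ratio 1.02, 0.99 to 1.05) and Ccl4 (0.62, 0.60 to 0.64) were past 1.5-fold higher, and Klrd1 and Klrk1, receptors shared with natural killer cells, were lower at -0.88 and -1.22. These are 2 of 14 in each direction, against 1.14% of all genes higher and 3.44% lower. In pBIC10 only Klrd1 was past 1.5-fold, at 57.8 against 95.2 CPM (-0.72, -0.92 to -0.53), which is 1 of 14 lower against 2.41% of all genes, with Ccl3 at -0.11 and Ccl4 at 0.20. In pBIC the ratios as a mean over clonotypes were 0.017 for Klrd1 and -0.11 for Klrk1, so neither stayed past 1.5-fold, while Ccl3 and Ccl4 were at 1.13 and 0.74. Gzma, the protease granzyme A, stood at 181.7 against 268.9 CPM in pBIC (-0.57) and 50.8 against 74.2 in pBIC10 (-0.55), although as a mean over clonotypes it was at 1.22 and -1.31.

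Among 10 naive and memory genes 1, Tcf7, a transcription factor of naive and memory cells, was past 1.5-fold lower in pBIC (-0.76) and none in pBIC10 (-0.32 for Tcf7), with list medians of -0.20 and -0.15. Past 1.5-fold lower over all genes were 3.44% in pBIC and 2.41% in pBIC10, shares that apply to each list of this paragraph. In pBIC Tcf7 was at -0.05 as a mean over clonotypes, and none of the 10 was past 1.5-fold there. Bcl2, a survival factor, stood at 94.9 against 140.7 CPM (-0.57) and 35.8 against 48.3 CPM (-0.43), and as a mean over clonotypes at 0.06 and -0.61. Klf2, a factor of T-cell recirculation, stood at -0.32 and -0.37. Of 11 inhibitory receptor and exhaustion genes, Cd244a was past 1.5-fold lower in pBIC (-0.70, 38 and 349 UMIs, but -0.57 and under 1.5-fold as a mean over clonotypes) and none was past it in pBIC10. Of 5 regulatory T-cell genes, Foxp3, their lineage factor, had 2 UMIs in dual-TRA and 239 in single-TRA barcodes of pBIC, a log2 ratio of -4.40 (-7.46 to -2.54), and 55 and 374 in pBIC10 (0.14). The pBIC UMIs came from 50 barcodes, 2 of them dual-TRA (4%, 0.488 to 13.7). Counted by barcode, that interval holds the 13.1% of dual-TRA barcodes in all of pBIC.

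The gamma chain constant genes Tcrg-C2 and Tcrg-C4, which belong to the receptor of gamma-delta T cells but are also transcribed in some alpha-beta T cells, were lower in dual-TRA barcodes of both mice. Tcrg-C2 was at 3.08 against 19.3 CPM in pBIC (-2.65, -3.27 to -2.09) and at 2.75 against 5.55 in pBIC10 (-1.01, -2.04 to -0.13), and Tcrg-C4 at -1.58 and -0.71. Of the 7 genes of the list on unconventional T cells, only 3 in pBIC and 2 in pBIC10 had 100 UMIs, as did 1 of the 6 recombination and thymic genes, which was not past 1.5-fold, and none of the 5 platelet genes. As a mean over clonotypes Tcrg-C2 was at -1.53 in pBIC and 0.12 in pBIC10, and Tcrg-C4 at -0.15 and -0.31. Members of the list below 100 UMIs went the other way: Tcrg-C1, also a gamma constant gene, had 26 UMIs in dual-TRA and 30 in single-TRA barcodes of pBIC10, a log2 ratio of 2.70 (1.88 to 3.51), but 4 and 57 in pBIC, at -1.34 (-3.26 to 0.10). Cd163l1 was at 3.37 from 11 and 6 UMIs in pBIC and at 2.32 from 4 and 6 in pBIC10. Of 11 measured interferon response genes in pBIC, 1, Rsad2, was past 1.5-fold lower, and of 10 in pBIC10 none, with medians of -0.17 and -0.13. Over all genes 3.44% in pBIC and 2.41% in pBIC10 were past 1.5-fold lower. No stress gene of the 6 measured was past 1.5-fold in either mouse, with Fos at 0.51 and 0.46. As a mean over clonotypes Fos was at 0.69 in pBIC and 0.02 in pBIC10.

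Over all genes, those at least 1.5-fold apart in the same direction in both mice, by summed CPM and by the mean over clonotypes, were few. After leaving out receptor segments and other classes, Map3k12, a kinase of stress signalling, was the only higher one, at 8.18 against 4.85 CPM in pBIC (0.75, 0.34 to 1.15) and 7.51 against 4.75 in pBIC10 (0.66, 0.04 to 1.24). Spp1, Lyz1, Dusp7, Apol11b, Rflnb, H2-M2 and Zfp467 were lower. Dusp7, a phosphatase of MAP kinases, was at -0.70 and -1.14, and Rflnb at -0.77 and -0.82. Lyz1, a lysozyme gene, was at -3.36 and -1.10 and rested on 10 and 12 UMIs in dual-TRA barcodes. H2-M2, a non-classical MHC gene, was at -4.69 in pBIC from 3 UMIs in dual-TRA and 437 in single-TRA barcodes (-6.97 to -3.13), and at -0.86 (-1.95 to 0.06) in pBIC10. With all barcodes classed by their clonotype, H2-M2 was at -0.60 in pBIC and -0.70 in pBIC10, and Lyz1 at 1.54 and -1.15.

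Markers of other cells were read in both classes. Summed over 9 B-cell markers, dual-TRA barcodes held 79.2 CPM and single-TRA barcodes 93.5 in pBIC, and 70.1 and 91.2 in pBIC10, with none of the 9 at 0. Cd79a and Cd79b are among the 9, and barcodes with more than 2 UMIs of them were left out beforehand, so this sum was limited in both classes. Of the measured B-cell markers, 1 of 8 was past 1.5-fold lower in pBIC and 3 of 7 in pBIC10, against 3.44% and 2.41% of all genes. The 10 macrophage and monocyte markers summed to 569 and 551 CPM in pBIC and 1218 and 1098 in pBIC10, the 8 neutrophil markers to 386 and 416, and 1359 and 1456, and the 7 natural killer markers to 141 and 173, and 357 and 333. Of 9 dendritic markers, 3 in pBIC and 4 in pBIC10 were at 0 in dual-TRA barcodes, against 1 in single-TRA barcodes of each mouse, and the 9 summed to 347 and 412 CPM in pBIC and 1061 and 1112 in pBIC10. Single neutrophil markers moved apart in pBIC, where Ngp was at 4.38 against 44.5 CPM (-3.34) and Camp at -3.77, while Retnlg was at 43.5 against 13.6 CPM (1.68). There Ngp and Camp were at -0.01 and -0.40 and Retnlg at 1.10 as a mean over clonotypes. In pBIC10 the median of the 7 measured neutrophil markers was -0.06, but -1.26 with none above 0 as a mean over clonotypes and -2.41 with 6 past 1.5-fold lower and 1 higher in clonotypes of 1 barcode. The erythroid list had 7 of 7 genes past 1.5-fold lower in pBIC (200 against 369 CPM) and 2 of 6 higher in pBIC10 (209 against 140). Over all genes 3.44% were past 1.5-fold lower in pBIC and 2.13% higher in pBIC10. With barcodes classed by clonotype none of the 7 was past 1.5-fold lower in pBIC, at a median of 0.04. In pBIC10 the erythroid median of 0.53 became -0.19, with 1 of 6 above 0, as a mean over clonotypes and -0.55, with 3 lower and 2 higher, in clonotypes of 1 barcode, so the mice did not keep opposite directions under these alternatives. The part of these transcripts in the differences between the classes was not tested.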

How the data were processed

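The deposited matrices hold raw UMI counts per gene and barcode, and the deposited contig tables hold read and UMI counts per chain. The authors' clonotype tables also give each clonotype's count of barcodes and its fraction of all barcodes, and this fraction was not printed. Per the submitters' processing notes, the pipeline was Cell Ranger 3.0.1 and the genome build GRCm39, whereas the matrices' header names cellranger 5.0.1, so the version is uncertain. Each contig row was productive, full length, of high confidence and in a called cell, so weaker or out-of-frame chains were not analysed here.

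Barcodes with 1 TRB row were split by TRA rows. Expression used barcodes with at most 2 UMIs of Cd79a and Cd79b together, and no doublet caller was run. UMIs were summed per class and divided by the class total, and a gene at 0 took a floor of 3 counts. Shares have Clopper-Pearson, ratios exact conditional binomial and medians order-statistic intervals, all at 95%. With 1 mouse per genotype no test was made. V gene order came from the RefSeq annotation of GRCm38.p6, used for order only. Named genes were all constant, CD3 and co-receptor genes with 20 UMIs, up to 2 per direction of each other list with 50 UMIs per mouse, and up to 10 per direction over all genes with 100 UMIs that passed 1.5-fold in both mice in sums and in clonotype means, without receptor segments, mitochondrial, ribosomal, haemoglobin, predicted and sex-linked genes. List members past 1.5-fold named beyond this rule, and Ccl3, Klrk1, Tnfrsf4, Tcf7, Egr3, Foxp3, Tcrg-C1, Cd163l1, Ngp, Camp and Retnlg, as well as the V families and the clonotypes named in the search for unlisted V genes, were chosen after their values were seen. A few results are not reported here. The members, lists and rule were chosen with earlier results of these data known. Gene ratios and their intervals were checked on simulated UMI sums with known fold changes. The classing of barcodes, the J distances and the V gene searches were not checked in this way. The software was Python 3.11.15, numpy 2.4.6, scipy 1.17.1, pandas 2.3.3 and matplotlib 3.10.9. Alternatives were a minimum of 3 contig UMIs, leaving out the largest clonotype, recurring pairs only, other Cd79a and Cd79b limits, CD8 barcodes only, clonotypes of 1 barcode, other centring, clonotype means and gene minimums. Classing by clonotype, detected V genes only and thinning were added after seeing the data.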

Additional observations from a re-analysis of the deposited data

Results flagged for a closer look

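For Cd8a the log2 ratio of dual-TRA over single-TRA barcodes was 0.23 in pBIC and -0.21 in pBIC10, and for Trbc1 it was 0.40 and -0.49. In each case the counting intervals lie on opposite sides of 0 in the mice. The difference between the mice was not tested, since there is 1 mouse per genotype. As a mean over clonotypes Cd8a stood at -0.03 and 0.10, which turns both signs, and Trbc1 at 0.16 and -0.53.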

How the results depend on the processing

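Of 86 alternatives over 14 main results, 65 stayed within the counting interval or, for counts of genes, within 1.5 times, and 21 moved; of 823 alternatives over 118 gene ratios, 584 stayed, 230 moved and 9 turned the sign of a ratio past 1.5-fold. Ratios under 1.5-fold turned sign in 101 of 607 alternatives, counted among those that stayed or moved, 25 of them as clonotype means. The dual-TRA share of barcodes in pBIC was 10.4% without the largest clonotype, 11.6% over recurring pairs and 10.7% over clonotypes of 1 barcode, and in pBIC10 6.25% over recurring pairs and 11.3% over clonotypes of 1 barcode. The share of clonotypes over recurring pairs was 3.66% and 3.01%. The UMI ratio of the chains was 0.619 over pBIC clonotypes of 1 barcode, and the ratio of total UMIs 1.13 by clonotype. The V gene of the lesser TRA was found in 74.8% of pBIC CD8 barcodes; with 2 UMIs required in 66.7% and 52.8%, over detected V genes in 98.0% and 92.8%, and after thinning in 49.4% and 34.7%. Genes past 1.5-fold were 489 in pBIC, 1437 as clonotype means (412 higher, 1025 lower) and 1400 with 20 UMIs required (429 and 971). In pBIC10 they were 460, 821 over recurring pairs (285 and 536), 1124 as clonotype means (425 and 699) and 1514 with 20 UMIs (697 and 817). Among ratios past 1.5-fold, the signs turned for Apol11b (0.089) and Lyz1 (1.54) classed by clonotype, H2-M2 (4.49) and Klre1 (0.034) in clonotypes of 1 barcode, Klrd1 (0.017) and Klre1 (0.079) as clonotype means, and Spp1 (0.026) in CD8 barcodes of pBIC, and for Tcrg-C2 as a clonotype mean (0.12) and Tcrg-C4 in clonotypes of 1 barcode (1.32) of pBIC10. The cause was not tested. No paired analysis was possible because there is 1 mouse per genotype.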

Other observations

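Dual-TRA barcodes were found among CD4 and CD8 cells alike. Among pBIC barcodes with Cd8a or Cd8b1 UMIs and no Cd4 UMI, 651 of 5014 were dual-TRA (13.0%, 12.1 to 13.9), and among those with Cd4 and neither Cd8 gene 94 of 754 (12.5%, 10.19 to 15.04). In pBIC10 the counts were 256 of 2545 (10.1%, 8.92 to 11.3) and 31 of 248 (12.5%, 8.65 to 17.3). Barcodes with neither co-receptor gave 24 of 299 (8.03%) and 6 of 121 (4.96%), at median depths of 4452 and 3299 UMIs against 6870 and 8340 in CD8 barcodes. Of barcodes with a Foxp3 UMI, the marker of regulatory T cells, 2 of 50 (4%, 0.488 to 13.7) were dual-TRA in pBIC and 13 of 128 (10.2%, 5.52 to 16.7) in pBIC10.

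The authors' deposited table of clonotypes notes evidence for the invariant receptor of natural killer T cells in 4 of 166 dual-TRA and 18 of 1318 single-TRA clonotypes of pBIC and in none of pBIC10. The pair of TRAV9-4 and its upstream neighbour Trav3-3 recurred beyond 1 clonotype: Trav3-3 UMIs were found in 185 of 240 pBIC single-TRA barcodes that list TRAV9-4 (77.1%, 71.2 to 82.2), in 52.0% (41.8 to 62.1) without the largest clonotype, and in 13 of 33 pBIC10 barcodes (39.4%, 22.9 to 57.9), against 2.63% of barcodes with other V genes in each mouse. Barcodes with 2 TRB rows and 1 TRA row, 352 in pBIC and 108 in pBIC10, had median totals of 7521 and 9171 UMIs, and barcodes with 1 TRB row and no TRA row, 910 and 342, had 4906 and 3535.5.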
